A study of Clarias macrocephalus with 14 samples.

Results

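Among the genes measured in fry of Clarias macrocephalus, the broadhead catfish, 61 reached their highest level at 14 days post fertilization (dpf), with a mean at least 2 times that of any other age sampled. The genes were chosen by measured values: both 14 dpf libraries had to lie above all 12 others, the 14 dpf mean had to be at least 20 CPM, and the score had to be at least 2. CPM are counts per 1e+06 library counts after TMM scaling, which adjusts each library's total for differences in composition. The score was the 14 dpf mean plus 1 CPM, divided by the highest mean among the other 6 ages plus 1 CPM. Of 18644 Gene IDs tested, 6305 had a 14 dpf mean of at least 20 CPM, 969 of these also had both 14 dpf libraries on top, and 61 passed the score; up to 150 could have been taken. Any value that sets 14 dpf against another age is therefore a description of how the genes were chosen, with no test.

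The series covers 7 ages, 3, 5, 13, 14, 16, 17 and 24 dpf, with 2 libraries of whole-body RNA per age, 14 in all. The labels give no treatment, strain or genotype, record sex as unknown, and do not say whether a library is a single fry or a pool, or whether the 2 libraries of an age came from separate spawns. The p-values therefore rest on the variation between these libraries alone, part or all of which may be technical. The 14 dpf libraries had totals of 4784696 and 5282312 counts, and the others spanned 1460853 (24 dpf, replicate 2) to 8837320 (16 dpf, replicate 2). TMM factors were 1.22 to 1.41 from 3 to 16 dpf and 0.39 to 0.66 at 17 and 24 dpf.

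Clariid catfishes breathe air with branching organs that grow from the gill arches, and the series was made to follow genes linked to that function as fry develop. The larval period is also when the gut, fins, skeleton and muscle are built, and all of these tissues contribute RNA to a whole-body library. In such samples a change in the number of cells of a type cannot be told apart from a change in RNA per cell. The table gives Gene IDs and assembled transcripts without gene names, so the genes are described here by their profile and by their transcripts. Gene IDs are printed for the 2 with the highest scores, and others are referred to by their rank in score.

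The score was 2.31 in the median of the 61 genes and ran from 2.00 to 5.03. The genes just inside the limit had scores of 2.002, 2.001 and 2.001, and those just outside had 1.998, 1.992 and 1.99, so no gap separated the 2 sides. The 14 dpf mean ran from 20.5 to 1120 CPM with a median of 59.1 CPM, and 16 genes had a mean of 100 CPM or more. The lowest count behind any of them in a 14 dpf library was 117. The same rule applied to each other age selected 49 genes for 3 dpf, 53 for 13 dpf, 44 for 16 dpf and 103 for 17 dpf. It reached the limit of 150 for 5 dpf, where 324 passed, and for 24 dpf, where 349 passed. The highest score at 14 dpf, 5.03, was the lowest of the 7 ages, which had highest scores of up to 152 at 5 dpf.

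**Figure D1:**
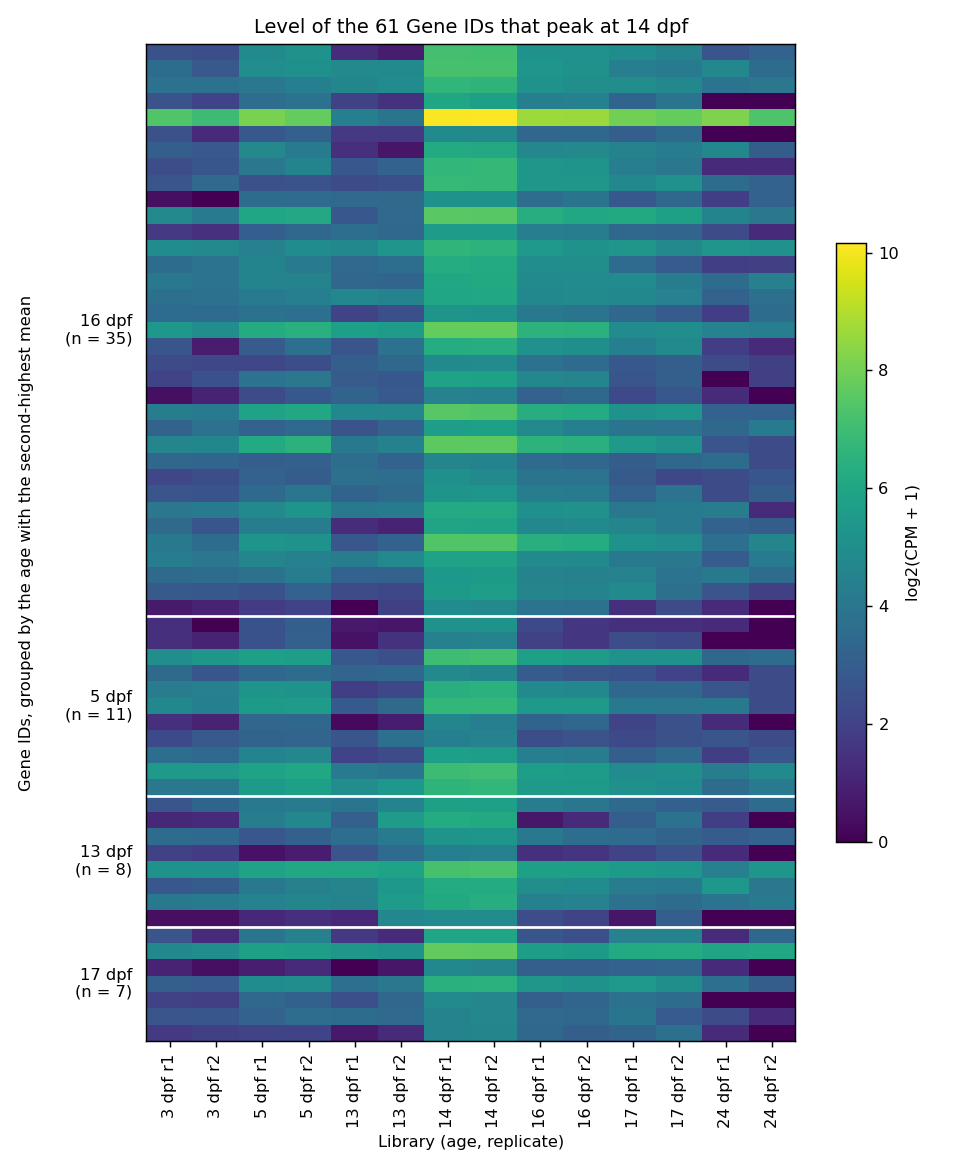
Level of the 61 genes in each of the 14 libraries as log2(CPM + 1); each line is a gene, and the genes are grouped by the age with their second-highest mean (35 genes for 16 dpf, 11 genes for 5 dpf, 8 genes for 13 dpf, 7 genes for 17 dpf). Both 14 dpf columns are the brightest on every line, as the rule requires, while 3, 13 and 24 dpf are dark for many lines.

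Gene ID 108265336 had the highest score, 5.03. Its level was 34.7 CPM in both 14 dpf libraries (203 and 221 counts). At 5 dpf it had 4.92 and 7.28 CPM, at 16 dpf 3.77 and 2.07 CPM, and at 17 dpf 1.61 and 1.57 CPM. At the remaining ages it was close to 0, with 5 and 0 counts at 3 dpf and 3 and 2 counts at 13 dpf, and a single count in replicate 1 and 0 in replicate 2 of 24 dpf. The next-highest age was thus 5 dpf, more than a week before the peak, and not an age beside it. Among the ages that the peak does not involve, the gene was higher at 5 than at 3 dpf by 2.81 ± 0.60 (log2 fold change ± SE, edgeR quasi-likelihood test, adjusted p = 0.000553). That size rested on few counts at 3 dpf: it was 1.89 without replicate 2 of 3 dpf (edgeR, adjusted p = 0.0197), and a fitted 7.86 without replicate 1, which leaves 3 dpf at 0 counts and the fold without a measured lower level. It was lower at 13 than at 5 dpf, with a log2 change of -3.33 ± 0.57 (edgeR, adjusted p = 4.02e-05). It was higher at 16 than at 13 dpf by 2.25 ± 0.64 (edgeR, adjusted p = 0.00708), and this call was lost without replicate 1 of 16 dpf, where the log2 change was 1.81 (edgeR, adjusted p = 0.0568). All of its counts belonged to a single transcript, TRINITY_DN131002_c5_g1_i9.

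Gene ID 108272022 followed with a score of 3.91. Its level was 143 and 136 CPM at 14 dpf (140 ± 5.05, SD, n = 2), against 1.44 and 0.772 CPM a day earlier, at 13 dpf. At 16 dpf it had 35.5 and 34.4 CPM, at 5 dpf 27.1 and 35 CPM, and at 17 dpf 30 and 22 CPM. It was low at both ends of the series, with 4.81 and 4.48 CPM at 3 dpf and 5.43 and 8.27 CPM (4 and 6 counts) at 24 dpf. The 5 dpf libraries overlapped those of 16 and of 17 dpf, both 16 dpf libraries lay above both of 17 dpf, and 13 dpf was the lowest age. The gene was higher at 5 than at 3 dpf by 2.72 ± 0.24 (log2 fold change ± SE, edgeR, adjusted p = 7.14e-09), and 13 dpf then lay below 5 dpf, with a log2 change of -4.73 ± 0.29 (edgeR, adjusted p = 9.58e-12). Its level at 16 dpf was above that at 13 dpf by 4.91 ± 0.28 (edgeR, adjusted p = 7.3e-12). From 16 to 17 dpf the log2 change was -0.43 ± 0.18, which did not pass (edgeR, adjusted p = 0.0596), and 24 dpf lay below 17 dpf with a change of -1.92 ± 0.39 (edgeR, adjusted p = 0.00093). Of its 1705 counts at 14 dpf, 1245 came from TRINITY_DN156317_c3_g1_i3, and the other 5 transcripts had 25 to 171 counts there.

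The gene with the highest level of the 61 ranked 7 by score, at 2.79, and was singled out after its values were seen. It had 1100 and 1140 CPM at 14 dpf and only 19.9 and 14.4 CPM at 13 dpf. The younger fry had 170 and 125 CPM (3 dpf) and 278 and 214 CPM (5 dpf). The older fry had 409 and 392 CPM (16 dpf), 253 and 214 CPM (17 dpf) and 289 and 165 CPM (24 dpf). Every age but 13 dpf was thus above 100 CPM, and 13 dpf stood below all of them. The difference from 5 to 13 dpf was -3.82 on the log2 scale (edgeR, adjusted p = 1.34e-11) and that from 13 to 16 dpf was 4.53 (edgeR, adjusted p = 2.8e-12).

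**Figure D2:**
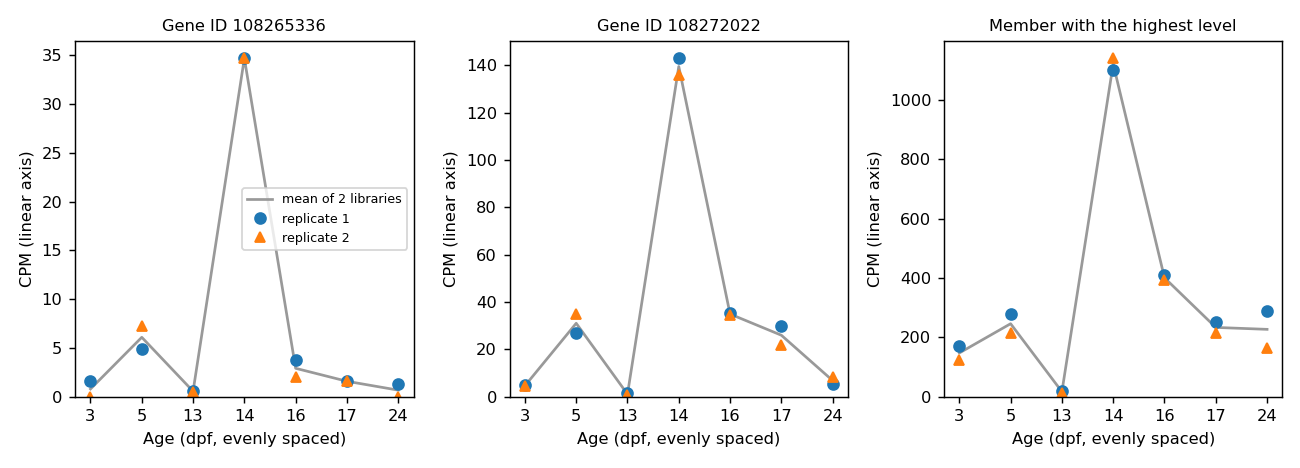
CPM of Gene ID 108265336, Gene ID 108272022 and the gene with the highest level (rank 7 by score) by age, on linear axes from 0 with the ages evenly spaced; points are the 2 libraries of an age and the line joins their means. Each has a mean at 5 dpf above that at 3 dpf, a low at 13 dpf and its highest level at 14 dpf; for rank 7 the difference between 3 and 5 dpf, 0.73 on the log2 scale, lost its call without replicate 2 of 3 dpf or replicate 1 of 5 dpf (0.54 in each).

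Over the 61 genes, the rise from the day before was usually steeper than the fall to the next age sampled, 2 days later. The ratio of the 14 to the 13 dpf mean, each plus 1 CPM, was 6.36 in the median and reached 66.8, and that of the 14 to the 16 dpf mean was 2.48 in the median and reached 38.3. The first was the larger for 50 of the 61. Both ratios share the 14 dpf mean, so this only says that the 16 dpf mean lay above the 13 dpf mean. It is not a separate result from the comparison of 16 with 13 dpf below, where shares over all Gene IDs are given. The ratio to 13 dpf was at least 4 in 38 genes, and that to 16 dpf was at least 4 in 7. The median level over the genes was 7.72 CPM (3 dpf) and 17.4 CPM (5 dpf), was 9.13 CPM the day before the peak and 59.1 CPM on it, and was then 23.2 CPM (16 dpf), 14 CPM (17 dpf) and 6.85 CPM (24 dpf). Without TMM scaling, the genes together held 0.686 and 0.678% of the tested counts at the peak. They held 0.28 and 0.263% of those at 16 dpf and 0.206 and 0.212% of those at 5 dpf. In each library of the other 4 ages the share was 0.0333 to 0.125%. By this share 17 dpf (0.0764 and 0.0826%) lay below 3 and 13 dpf, whereas by median CPM it lay above both.

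**Figure D3:**
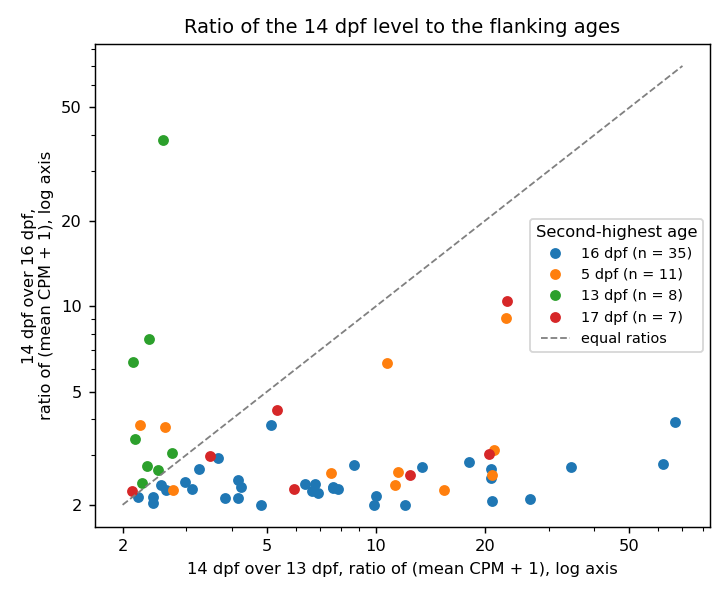
For each of the 61 genes, the ratio of its 14 dpf mean to its 13 dpf mean (x axis) and to its 16 dpf mean (y axis), with 1 CPM added to each mean and both axes on a log scale; colours give the second-highest age and the dashed line marks equal ratios. Of the 61, 50 lie below the line, with ratios to 13 dpf of up to 66.8, and the point highest on the y axis has ratios of 2.59 to 13 dpf and 38.3 to 16 dpf.

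The 2 libraries of 14 dpf had a median absolute log2 ratio of 0.063 for these genes and of 0.089 for the 6305 Gene IDs with at least 20 CPM there, with 1 CPM added. The rule needs both libraries on top, and whether this favours close pairs was not tested. The higher exceeded the lower by 1.05 times in the median and by 1.23 times at most. Replicate 1 was the higher in 30 genes and replicate 2 in 31. At 24 dpf, where the 61 genes had only 628 and 514 counts in all, 22 of them differed by at least 2-fold between the libraries, with 1 CPM added. There were 6 such genes for 13 dpf, 4 for 3 dpf, 2 for 17 dpf and 0 for each of 5, 14 and 16 dpf. These counts were not taken over all Gene IDs. At every age but 14 dpf the median absolute log2 ratio was larger for the 61 than for the 6305. It was 0.25 against 0.17 (3 dpf), 0.22 against 0.12 (5 dpf) and 0.35 against 0.16 (13 dpf). At the older ages it was 0.11 against 0.074 (16 dpf), 0.32 against 0.29 (17 dpf) and 0.64 against 0.35 (24 dpf). The rule keeps the 61 below their 14 dpf level at these ages, and the 6305 carry no such limit. The ratios are thus not matched for level or count, and whether the 61 differ more than other Gene IDs of like level was not tested. In 5 genes both 24 dpf libraries had 0 counts, and 15 had at least 1 library at 0 counts. With the 14 dpf libraries taken away, all 61 would still have met the filter on low counts.

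The age with the second-highest mean was 16 dpf in 35 genes (57.4%), 5 dpf in 11 genes (18%), 13 dpf in 8 genes (13.1%) and 17 dpf in 7 genes (11.5%), and it was never 3 or 24 dpf. Among all 18644 Gene IDs, 14% had the highest of these 6 means at 16 dpf and 21.8% at 5 dpf. It was at 3 dpf in 11.9%, at 13 dpf in 14%, at 17 dpf in 18.1% and at 24 dpf in 20.2%. Among the 6305 with at least 20 CPM at 14 dpf, 17.8% had it at 16 dpf and 19.9% at 5 dpf. It was at 3 dpf in 9.8% of these, at 13 dpf in 14.4%, at 17 dpf in 10.8% and at 24 dpf in 27.3%. The shares of the 61 at 5, 13 and 17 dpf were thus near those of the 6305. That at 16 dpf was above, and those at 3 and 24 dpf were below. The second-highest mean is also the divisor in the score. The age with the lowest mean was most often 24 dpf (23 of the 61) or 13 dpf (21), then 3 dpf (11), and it was 5, 17 or 16 dpf in only 3, 2 and 1 of them. The lowest age was not counted over all Gene IDs, so these numbers do not show a trait particular to the 61. The 24 dpf libraries also had the fewest counts. The 35 genes next highest at 16 dpf had median levels of 63.7 CPM at the peak, 9.13 CPM the day before, and 27.2 and 17.5 CPM at 16 and 17 dpf. The 11 next highest at 5 dpf had 24.1 CPM there, 5.3 CPM the day before the peak, 51.9 CPM on it and 19.3 CPM at 16 dpf. The 8 next highest at 13 dpf had 23.2 CPM there, 63.2 CPM at the peak and 15.3 CPM at 16 dpf. In all of these but rank 29, replicate 2 of 13 dpf was the higher library, and for several this grouping rests on it. Rank 17 had 7.61 and 47.8 CPM at 13 dpf, against 18.3 and 25.6 CPM at 5 dpf. Rank 35 had 23.4 and 41.4 CPM, against 31.7 and 29.6 CPM at 16 dpf. Ranks 23 and 29 did not depend on replicate 2. In the 7 next highest at 17 dpf the levels were 6.89 CPM the day before the peak, 26.6 CPM on it, and 8.51 and 11.9 CPM at 16 and 17 dpf. Across the 12 libraries of the other ages, Pearson's r of log2(CPM + 1) between any pair of the 61 genes had a median of 0.44 and ran from -0.656 to 0.972. All pairs share the same libraries, with their depth and scaling. Pairs of other Gene IDs were not measured, so r does not show that the 61 are more alike than others.

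Comparisons among the other 6 ages do not enter the score by their direction, although the rule keeps each of those levels below that at 14 dpf. A gene that came near its 14 dpf level at another age could not be chosen. The Gene IDs set beside the 61 carry no such limit, so the shares are not matched for the rule. How far the rule alone sets the splits below was not tested. The comparisons used edgeR's quasi-likelihood test over all 18644 Gene IDs, at a Benjamini-Hochberg adjusted p under 0.05. Neighbouring comparisons share the libraries of the age between them. Any difference among the 6 ages was called for 60 of the 61 genes (98.4%), for 86.4% of all Gene IDs and for 95.4% of those with a 14 dpf mean of at least 20 CPM, so nearly every gene at such levels varied among these ages. The exception, singled out for that reason, ranked 47 (edgeR, adjusted p = 0.332).

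At 5 against 3 dpf, 42 of the 61 genes were higher (68.9%) and 1 was lower (1.64%), where 24.7% of all Gene IDs tested were higher and 20.4% lower (edgeR, adjusted p under 0.05). Among the 6305 Gene IDs with at least 20 CPM at 14 dpf, 31% were higher and 25.9% lower. The median log2 fold change of the 61 was 1.09, against 0.04 over all Gene IDs, and 55 were above 0. The gene that was lower ranked 23, with 2.89 and 2.41 CPM at 3 dpf and 0.41 and 0.693 CPM at 5 dpf; its call was lost without replicate 1 of 3 dpf (log2 change -2.11, edgeR, adjusted p = 0.0641) or of 5 dpf (log2 change -1.89, edgeR, adjusted p = 0.0638).

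At 13 against 5 dpf, 32 of the genes were lower (52.5%) and 9 were higher (14.8%), where 28.4% of all Gene IDs were lower and 25.1% higher (edgeR, adjusted p under 0.05). The median log2 fold change was -0.72 for the 61 and -0.03 for all. Without replicate 2 of 13 dpf there were 6 higher and 35 lower calls, and without replicate 1 of 5 dpf 5 higher and 33 lower.

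At 16 against 13 dpf, the ages on either side of the peak, 37 of the 61 genes were higher at 16 dpf (60.7%) and 5 lower (8.2%). Over all Gene IDs these were 21.4% and 18.4% (edgeR, adjusted p under 0.05). With at least 20 CPM at 14 dpf they were 28.6% and 21.2%. The median log2 fold change was 1.45, with a range from -4.71 to 4.91, against 0.02 over all Gene IDs. In 45 genes (73.8%) both 16 dpf libraries lay above both 13 dpf libraries, against 38.5% of all Gene IDs and 44.7% of those with at least 20 CPM at 14 dpf. In 7 genes (11.5%) both lay below, against 34.3% and 36.2%. The 5 lower calls became 2 without replicate 2 of 13 dpf, which gave 41 higher calls, and also without replicate 1 or 2 of 16 dpf.

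At 17 against 16 dpf, 32 genes were lower (52.5%) and 3 higher (4.92%), where 23.6% of all Gene IDs were lower and 23.2% higher (edgeR, adjusted p under 0.05). Among those with at least 20 CPM at 14 dpf, 39% were lower and 23.2% higher. After TMM scaling the median log2 fold change over the 61 was -0.59. Of the called genes, 16 were lower and 2 higher by at least 1 on the log2 scale. Without scaling, the 61 together held 0.28 and 0.263% of tested counts at 16 dpf and 0.0764 and 0.0826% at 17 dpf. The size of the fall thus depends on the scaling. At 17 dpf TMM factors were 0.55 and 0.66, against 1.33 and 1.32 at 16 dpf. With upper-quartile scaling 22 genes were lower and 3 higher, while the median log2 change of all Gene IDs moved by 0.13. The 3 higher genes ranked 8, 9 and 17 and are mentioned because they went against the others. The call of rank 17 was lost without replicate 2 of 17 dpf (log2 change 2.87, edgeR, adjusted p = 0.103). In rank 17, the transcripts that held 96.5% of the 14 dpf counts each had fewer than 3 counts at 17 dpf. The gene had 14 and 25 counts there, so most of these belonged to other transcripts. The gene of rank 8 had 5.53 and 4.65 CPM at 16 dpf and 21.5 and 22.5 CPM at 17 dpf, below its 63.3 and 61.9 CPM at 14 dpf.

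At 24 against 17 dpf, 26 of the 61 genes were lower (42.6%) and 0 higher (0%), where 11.8% of all Gene IDs were lower and 13.5% higher (edgeR, adjusted p under 0.05). Among the 6305 Gene IDs with at least 20 CPM at 14 dpf, 12.6% were lower and 27.3% higher. The median log2 fold change of the 61 was -1.18, against -0.09 over all Gene IDs, and 5 of the 61 had a change above 0. The number of lower calls was 16 without replicate 1 of 24 dpf, and 18 with 1 higher call without replicate 2 of 24 dpf. The few counts at 24 dpf limit these values. DESeq2 gave 20 lower and limma-voom 22, each with 0 higher.

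**Figure D4:**
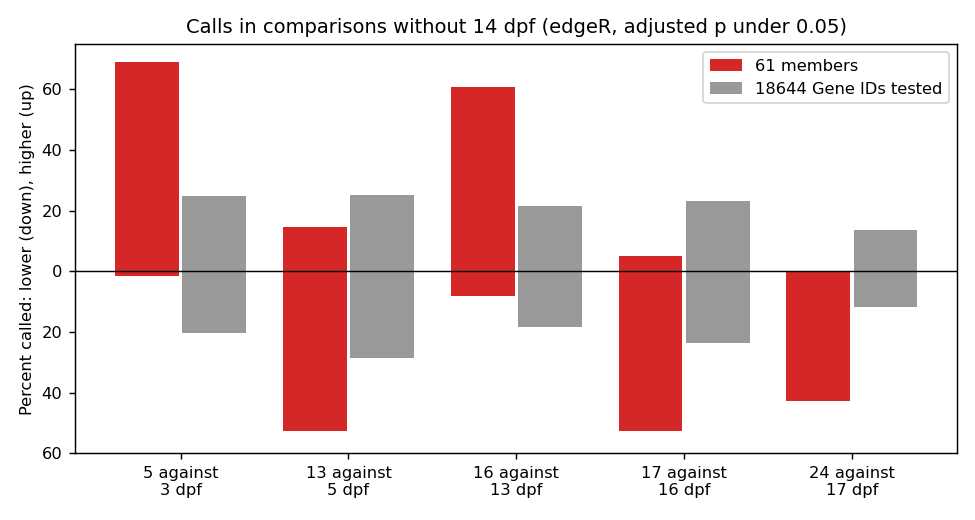
Percent of the 61 genes (red) and of all 18644 Gene IDs tested (grey) called higher (bars above 0) or lower (bars below 0) by edgeR at an adjusted p under 0.05 in the 5 comparisons without 14 dpf. Calls among the 61 are mostly higher at 5 against 3 dpf (68.9%) and 16 against 13 dpf (60.7%) and mostly lower in the other 3, where the grey bars are close to balanced.

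A Gene ID gathers several assembled transcripts, and the 61 genes covered 370 of them. They had 4 transcripts in the median, at most 31, and 8 had a single one. The median was 5 over all Gene IDs tested and 9 over those with at least 20 CPM at 14 dpf. The leading transcript, that with the most counts at 14 dpf, held 76.1% of a gene's 14 dpf counts in the median and 21.6% at the lowest. Over Gene IDs with at least 20 CPM at 14 dpf the median was 68.2%. Among the 61, the leading transcript held at least 90% in 23 genes and under 50% in 11. The gene with the highest level was the one with the lowest share, spread over 22 transcripts, of which 12 had a 14 dpf sum of 20 counts or more and 11 of these 12 had both 14 dpf libraries above all others.

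The transcript that led at 14 dpf was mostly the one that led at other ages too. It held 80.1% of a gene's counts at the other 6 ages in the median. For Gene IDs with at least 20 CPM at 14 dpf this median was 70%. In 33 of the 53 genes with more than a single transcript, the leading transcript led at every other age with at least 20 counts. In 8 genes another transcript led at 16 dpf. These 2 counts were not taken over other Gene IDs. Those with at least 20 CPM at 14 dpf had more transcripts, 9 in the median against 4. Of 176 transcripts of these genes with at least 20 counts at 14 dpf, 150 had both 14 dpf libraries above all 12 others. In 44 genes at least 20 counts lay outside the leading transcript. The sum of those other transcripts had both 14 dpf libraries on top in 37 of the 44, and also a score of at least 2 in 22. These numbers describe where the chosen peak sits among the transcripts, since the rule used their sum.

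**Figure D5:**
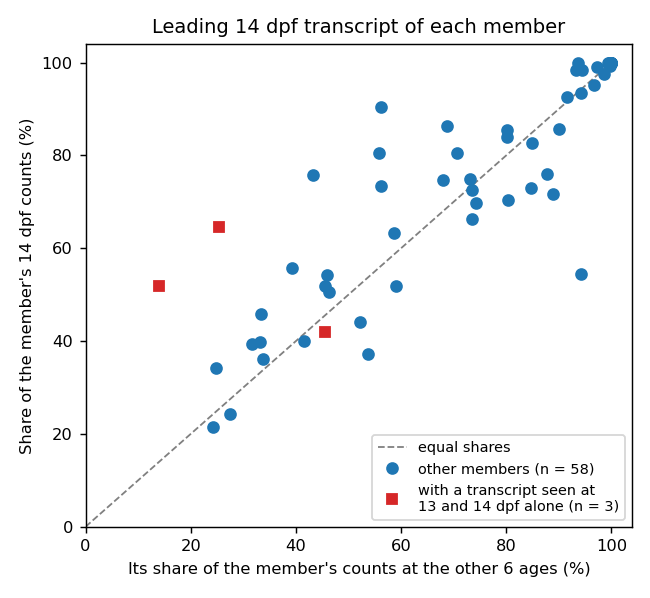
For each of the 61 genes, the share of its 14 dpf counts held by its leading 14 dpf transcript (y axis, percent) against the share of its counts at the other 6 ages held by that transcript (x axis, percent); the dashed line marks equal shares. Most points lie near the line, and red squares are the 3 genes with a transcript seen at 13 and 14 dpf alone.

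Of the 61 genes, 3 held transcripts seen at 13 and 14 dpf alone. Such a transcript was defined by a sum of 20 counts or more for each of those ages and of fewer than 3 for each other age. The whole table held 805 such transcripts and 50 seen at 14 dpf alone, and none of the 61 genes had one of the 50. How many of all Gene IDs hold a transcript seen at 13 and 14 dpf alone was not counted. Whether 3 of the 61 is many or few is thus not known. These 3 genes ranked 17, 23 and 46, and such transcripts held 96.5%, 51.8% and 42% of their 14 dpf counts. A lower level at 16 than at 13 dpf is part of how these transcripts were defined, so the log2 changes of the 3 genes, -4.71, -2.08 and -1.74 in order of rank, are given as descriptions. Without replicate 2 of 13 dpf they were -2.9, -1.53 and 1.54, so that the sign for rank 46 rested on that library. The leading transcript of rank 46, with 42% of its 14 dpf counts, did not have both 14 dpf libraries above all others. The score of this gene was 2.13, and that of its other transcripts summed was 3.64, so its peak did not rest on the leading transcript.

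The 13 dpf libraries differed widely in these genes. The gene of rank 17 had 7.61 CPM in replicate 1 and 47.8 CPM in replicate 2 of 13 dpf, against 74.9 and 71.8 CPM at 14 dpf. The gene of rank 46 had 1.23 and 24.9 CPM at 13 dpf and 29 and 29.1 CPM at 14 dpf. In the gene of rank 23 the 13 dpf values were 5.35 and 10.8 CPM, and those at 14 dpf were 20 and 21.1 CPM. Replicate 2 of 13 dpf was thus the nearer to 14 dpf in each, and reached 24.9 of about 29 CPM in rank 46. Without that replicate 74 genes met the rule at 14 dpf, 56 of them among the 61.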

How the data were processed

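The members and lists were chosen with earlier results of these data known. The values are expected counts, estimated by the authors and deposited with 1 column per library and no scaling. RSEM, Trimmomatic 0.36, CASAVA 1.9.1, DESeq2 and FastQC appear, with no role, among the tools of the submitters' processing notes. What assembly was used, how Gene IDs were assigned and whether strand was used is not given in the sources used here. Per the labels' protocols, ribosomal RNA was depleted.

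Expected counts of 166841 transcripts were summed over 23837 all-digit Gene IDs and rounded, and 5672 transcripts whose Gene IDs hold letters were left out. Reads of near-identical transcripts may be divided between Gene IDs. Libraries were grouped by age, 2 per age. The filterByExpr filter (minimum count of 10) kept 18644 Gene IDs, or 98.4 to 99.5% of the counts per library. The fit took all 14 libraries, with age as its term, in edgeR 4.0.16 (R 4.3.3; TMM, quasi-likelihood test, Benjamini-Hochberg adjustment over all Gene IDs). The SE is the absolute log2 fold change divided by the square root of F. Alternatives used DESeq2 1.42.0, limma 3.58.1, other scalings and filters, each library left out in turn and single transcripts. The fit was tested on simulated data. The rule for printed Gene IDs, used where none has a gene name, was the 2 with the highest scores. For want of names, 23 gene lists were not tested.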

Additional observations from a re-analysis of the deposited data

How the results depend on the processing

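Of 576 alternative values, 558 kept their direction and stayed within 1.5 times the reported count or on the same side of the threshold. The counts that did not were 16 genes called at 24 against 17 dpf without replicate 1 of 24 dpf, 18 called at 17 against 16 dpf with a log2 change of at least 1, a limit that can only lower a count, and 40 of the 61 genes chosen with 5 CPM in place of 1 added in the score, which lowers the score of low genes. The other 15 were values of single genes that lost their call, 2 of them by that limit of 1. The 2 that also changed direction belonged to the gene of rank 46, for which replicate 2 of 13 dpf decides the sign: with any 1 library left out its log2 change ran from -2.76 to 1.54 at 16 against 13 dpf and from -0.16 to 4.15 at 13 against 5 dpf. With any 1 library left out there were 36 to 47 genes called at 5 against 3 dpf, 38 to 41 at 13 against 5, 37 to 43 at 16 against 13, 26 to 37 at 17 against 16, 16 to 26 at 24 against 17 and 59 to 60 over the 6 ages, and kept 52 to 61 of the 61 genes among 52 to 74 chosen. An age left with a single library is assumed to vary like the others. RLE scaling kept 61 of 64 chosen, upper-quartile scaling 60 of 65 and unscaled CPM 44 of 56. Upper-quartile scaling moved the share of higher calls over all Gene IDs at 24 against 17 dpf from 53.3% to 40.8% and their median log2 change by -0.16; among the 61 genes it gave 28 lower and 0 higher. Over all Gene IDs tested, r between same-numbered deviations was -0.07 to 0.05 over 21 pairs of ages. No broad pairing by replicate number was thus seen, but such an r could miss pairing limited to few genes. With the replicate block 43, 40, 42, 33 and 24 genes were called in the 5 comparisons in order of age, and 59 over the 6 ages. Depth limits 24 dpf most, with 1913945 and 1460853 counts.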
